A study of Homo sapiens with 4 samples.

Results

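The genes described here encode 10 human proteins that keep chromatin in a repressed state: DNMT1, UHRF1 and HELLS of DNA methylation maintenance, EZH2, SUZ12 and EED of Polycomb repressive complex 2 (PRC2), SUV39H1, SUV39H2 and CBX5 of histone H3 lysine 9 methylation and its reading, and KMT5A of histone H4 lysine 20 methylation. They were chosen by gene symbol, and all 10 symbols were found among the 6828 genes of the deposited table. The measurements were poly(A) RNA-seq of A549, a human lung adenocarcinoma cell line of epithelial type. Cells received lentivirus carrying a control shRNA (shctrl) or an shRNA against the long noncoding RNA USP2-AS1 (shUSP2-AS1), RNA was taken 72 h later, and each group had 2 libraries, which the study's methods call biological replicates. Each group thus rests on 1 cell line and, as far as the labels tell, 1 hairpin, and which of the study's USP2-AS1 hairpins was sequenced is not given in the sources used here. Values are normalized read counts, that is, read counts divided by a size factor of the library. The table lists only genes with an adjusted p-value below 0.05 in the study's own comparison, so a gene that it does not list was not analysed here, and passing an adjusted p-value says little about a gene that is listed.

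Repressive marks have to be rebuilt after each round of DNA replication, because new DNA is unmethylated and new histones dilute the old ones. UHRF1 recognises DNA methylated on one strand and brings in DNMT1, the methyltransferase that copies the pattern, while HELLS (also called LSH) is a nucleosome remodeller needed for methylation of repeats. EZH2 is the catalytic subunit of PRC2 and methylates H3 lysine 27, SUZ12 is its scaffold, and EED reads the finished mark. SUV39H1 and SUV39H2 trimethylate H3 lysine 9, and CBX5 (HP1 alpha) binds that mark in heterochromatin. KMT5A (SET8) adds the first methyl group to H4 lysine 20, and its protein is destroyed in S phase by a ubiquitin ligase that contains DTL.

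Promoters are shown first because 5 of the 10 genes shared a motif there. The genes and the motifs were chosen with earlier results of these data known. The searched windows ran from 250 bases before to 50 bases after the start site in the RefSeq promoter table of GRCh38.p14, and all 10 genes matched a window at the start of their MANE Select transcript, the representative transcript shared by RefSeq and Ensembl. That start lies inside the interval the table gives for the gene, rather than at its edge, for most of the genes, and farthest inside for HELLS, DNMT1, UHRF1 and SUV39H1. The E2F motif was searched as TTTCCCGC, TTTCGCGC, TTTGCCGC and TTTGGCGC on both strands. It was present in DNMT1, UHRF1, EZH2, SUZ12 and HELLS, and in 3.31% of all 35116 windows. Of the 4875 genes tested below that had such a MANE Select window, 5.58% held it. Stretches around the match nearest to the start site are given 5′ to 3′ on the strand of the gene, with the match in capitals. Where the match lies on the other strand, as in DNMT1 and UHRF1, the capitals read as its reverse complement.

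DNMT1, chr19:10194934-10194975, minus strand, motif 2 bases before the start site: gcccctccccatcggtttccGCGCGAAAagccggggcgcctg
UHRF1, chr19:4909467-4909514, plus strand, motif 14 bases before the start site: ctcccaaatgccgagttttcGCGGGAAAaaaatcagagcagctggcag
EZH2, chr7:148884272-148884310, minus strand, motif at base 2 of the transcript: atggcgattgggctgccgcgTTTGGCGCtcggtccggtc
SUZ12, chr17:31936798-31936845, plus strand, motif 189 bases before the start site: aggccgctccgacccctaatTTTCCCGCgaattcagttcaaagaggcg
HELLS, chr10:94545760-94545807, plus strand, motif 8 bases before the start site: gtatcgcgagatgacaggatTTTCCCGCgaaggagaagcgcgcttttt

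HELLS held another match 76 bases before its start site. Other motifs were searched in the windows of all 10 genes, with or without the E2F motif. The CHR element, TTTGAA, was present in SUV39H2 and SUZ12 and in 15.2% of all windows. The E-box CACGTG was present in CBX5 alone, in 2 copies, and in 7.26% of all windows. CCAAT was present in 8 of the 10 genes and in 34.6% of all windows, with 4 copies in EZH2. Over the 4875 tested genes with a MANE Select window, the shares were 9.29% for the CHR element, 10.6% for the E-box and 37.4% for CCAAT. A match is a stretch of letters and does not show that a factor binds there. The CHR element of SUV39H2 and both E-boxes of CBX5 are given in the same way, in capitals.

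SUV39H2, chr10:14878848-14878885, plus strand, CHR element at base 3 of the transcript: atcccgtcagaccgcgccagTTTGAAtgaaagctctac
CBX5, chr12:54280241-54280349, minus strand, E-boxes 207 and 144 bases before the start site: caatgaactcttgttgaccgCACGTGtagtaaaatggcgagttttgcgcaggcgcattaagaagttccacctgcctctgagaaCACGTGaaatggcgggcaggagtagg

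**Figure D1:**
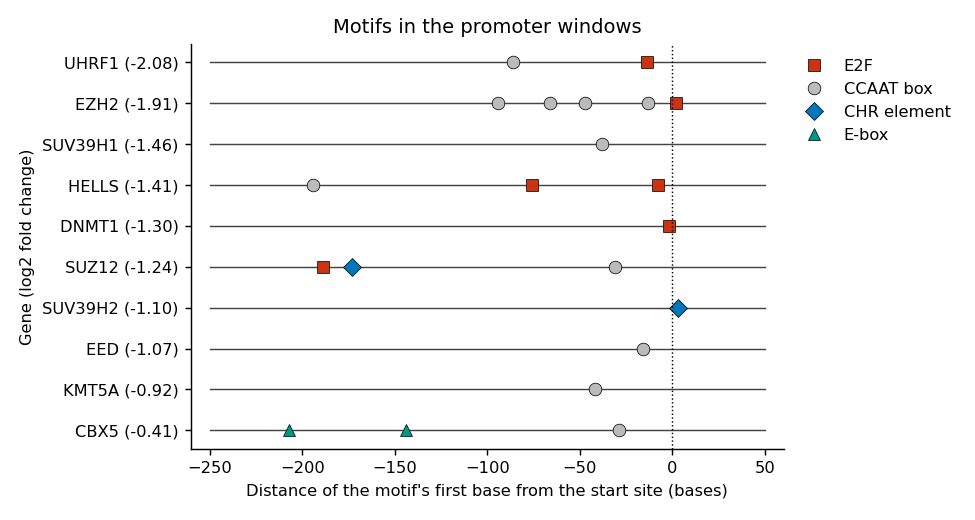
Positions of 4 motifs in the promoter windows of the 10 genes, one row per gene; the x axis is the distance in bases from the start site of the MANE Select transcript and each symbol is the first base of a match on either strand. E2F motifs sit in 5 genes, and in 4 of them the nearest one begins within 20 bases of the start site, while that of SUZ12 lies 189 bases before it.

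The knockdown was read first. USP2-AS1 stood at 23.2 and 24.2 normalized counts in the shctrl libraries and at 2.10 and 6.16 in the shUSP2-AS1 libraries, a log2 fold change of -2.39 (SE 0.56) with an adjusted p of 0.000597 in limma, from only 2 to 24 reads per library. The reads on the listed genes summed to between 10772788 and 14120472 per library. Of the epithelial markers, 4 of 10 were listed, and their summed level was 168132 to 179244 in shctrl and 106336 to 112823 in shUSP2-AS1. KRT18 fell (log2 fold change -1.05), KRT8 was at -0.77 and KRT7 at -0.49, and KRT19 was at 0.75. EPCAM and CDH1 were not listed. Of 10 markers of other cell types, COL1A1 and ACTA2 were listed, both rose (1.05 and 1.79), and their summed level went from 378 to 442 in shctrl to 987 to 1078 in shUSP2-AS1; PTPRC, PECAM1 and the other 6 were not listed. KRT18 was not called under upper quartile scaling, nor COL1A1 under RLE scaling, in DESeq2 with its own size factors, without shUSP2-AS1 replicate 2 or without shctrl replicate 1, and neither was called against a fold change of 2. The part of these markers in the results below was not tested.

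All 10 genes were lower in both shUSP2-AS1 libraries than in either shctrl library, and 8 of them fell past the threshold used here, an adjusted p below 0.05 in limma over the 6812 genes tested together with a log2 fold change of at least 1 in size. None of the 10 rose in limma, edgeR or DESeq2, nor in limma with no fold threshold. For comparison, 13.5% of all tested genes were called lower and 16.1% higher, 49.3% were lower without overlap between the groups, and 100% passed on the adjusted p alone. The median log2 fold change of the 10 genes was -1.27, against 0.19 over all genes tested. The genes spread from -2.08 for UHRF1 to -0.41 for CBX5. In RNA from whole cultures, fewer cells that express a gene and less RNA per cell cannot be told apart.

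**Figure D2:**
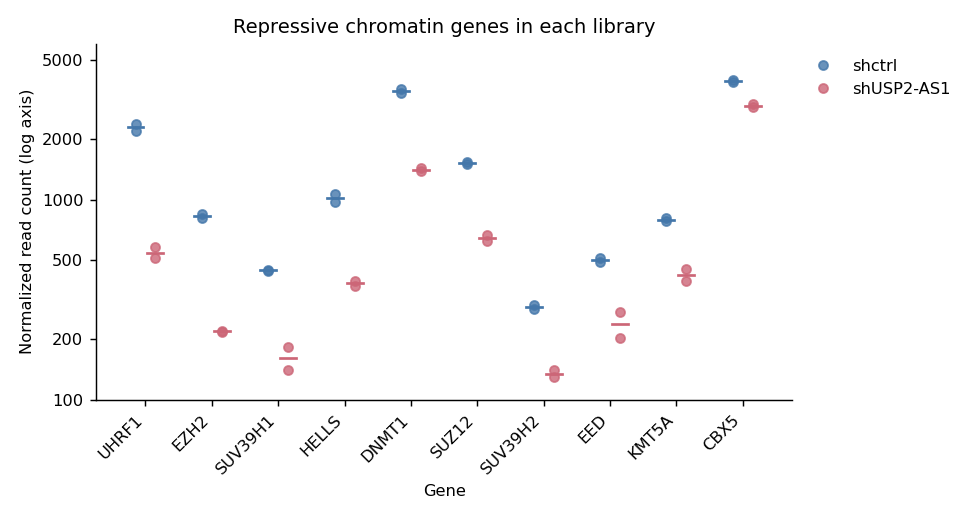
Normalized read counts of the 10 genes (log axis), with one point per library, the bar at the mean of the 2 libraries of a group, shctrl in blue and shUSP2-AS1 in red. For each gene both red points lie below both blue points, and the gap is widest for UHRF1 and narrowest for CBX5.

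Among the DNA methylation maintenance genes, UHRF1 had the most negative log2 fold change and all 3 were called lower. UHRF1 (ENSG00000276043, chromosome 19, 4903080 to 4962154) was at 2213 and 2386 normalized counts in shctrl and at 511 and 576 in shUSP2-AS1. The groups did not come near each other, and the mean went from 2299 ± 122 to 543 ± 45.8 (SD, n = 2). The log2 fold change was -2.08 (SE 0.07, 95% interval -2.23 to -1.93) with an adjusted p of 6.21e-14 in limma. DNMT1 (ENSG00000130816, chromosome 19, 10133345 to 10231286, minus strand) had 3396 and 3553 normalized counts in shctrl and 1385 and 1441 in shUSP2-AS1. Its libraries were tight within each group, at 3475 ± 111 and 1413 ± 39.8, and its log2 fold change was -1.30 (SE 0.06, adjusted p 7.66e-13 in limma). HELLS (ENSG00000119969, chromosome 10, 94501434 to 94613905) was at 1063 and 968 in shctrl and at 368 and 394 in shUSP2-AS1. It kept 37.5% of its control level, a log2 fold change of -1.41 (SE 0.08, adjusted p 4.91e-11 in limma). Exons of DNMT1 overlap those of S1PR2 on the same strand, and exons of HELLS those of ENSG00000244332. How reads in these overlaps were counted is not given in the sources used here.

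Relatives of DNMT1 and UHRF1 that are not held to be the main maintenance factors give a comparison within the same libraries. DNMT3A, a de novo methyltransferase, was at 579 and 604 in shctrl and at 733 and 750 in the knockdown libraries, a log2 fold change of 0.33 that did not pass the fold threshold. Per kilobase of the gene length in the table, DNMT1 stood at 7.22 and 7.24 times the level of DNMT3A in shctrl and at 2.33 and 2.37 times in shUSP2-AS1. UHRF2, a relative of UHRF1, was at 697 and 824 in shctrl and at 552 and 543 in the knockdown libraries, a log2 fold change of -0.47 that did not pass the fold threshold. The ratio of UHRF1 to UHRF2 per kilobase was 6.12 and 5.58 in shctrl and 1.78 and 2.04 in shUSP2-AS1. Within the maintenance pair the ratio of DNMT1 to UHRF1 per kilobase went from 0.806 and 0.782 to 1.42 and 1.31. Whether such a ratio lies above or below 1 depends on the gene length used, while its change between the groups does not. With the length of the MANE Select transcript, DNMT1 was the higher of the pair in both groups, at 659 against 590 normalized counts per kilobase in shctrl and at 268 against 139 in shUSP2-AS1. The groups did not overlap in any of these ratios, which are given as descriptions with no test. DNMT3B was not listed.

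In PRC2 all 3 core subunits fell, the catalytic one the most. EZH2 (ENSG00000106462, chromosome 7, 148807383 to 148884321, minus strand) was at 845 and 813 normalized counts in shctrl and at 218 and 221 in shUSP2-AS1. The knockdown libraries were nearly equal, and the mean went from 829 ± 22.8 to 219 ± 2.34, which is 26.4% of control. The log2 fold change was -1.91 (SE 0.09, 95% interval -2.11 to -1.72) with an adjusted p of 3.03e-12 in limma. SUZ12 (ENSG00000178691, chromosome 17, 31937007 to 32001038) was at 1498 and 1541 in shctrl and at 665 and 623 in the knockdown libraries, a log2 fold change of -1.24 (SE 0.07, adjusted p 2.13e-11 in limma). It kept 42.4% of its control level. EED (ENSG00000074266, chromosome 11, 86244753 to 86278813) was at 485 and 509 in shctrl and at 204 and 273 in the knockdown libraries, a log2 fold change of -1.07 (SE 0.12, adjusted p 2.98e-07 in limma). Its shUSP2-AS1 libraries were the less even ones, and without shUSP2-AS1 replicate 1 the log2 fold change of EED was -0.86 and it was no longer called. It was not called either when tested against a fold change of 2. EZH2, SUZ12 and EED each have a copy in the annotation (EZH2P1, SUZ12P1 and EEDP1). Exons of EED also overlap those of MIR6755 on the same strand and of ENSG00000288809 on the opposite strand. How reads shared with such copies or overlaps were assigned is not given in the sources used here.

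EZH1, the other catalytic subunit that PRC2 can use and the more usual one in non-dividing cells, was at 426 and 443 in shctrl and at 317 and 319 in shUSP2-AS1. Its log2 fold change of -0.45 did not pass the fold threshold. The ratio of EZH2 to EZH1 per kilobase was 3.07 and 2.84 in shctrl and 1.06 and 1.07 in shUSP2-AS1. The ratios of EZH2 to its partners were lower after knockdown as well. The ratio of EZH2 to SUZ12 per kilobase went from 0.818 and 0.765 to 0.474 and 0.514, and that of EZH2 to EED from 2.62 and 2.41 to 1.61 and 1.22. Neither ratio overlapped between the groups.

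**Figure D3:**
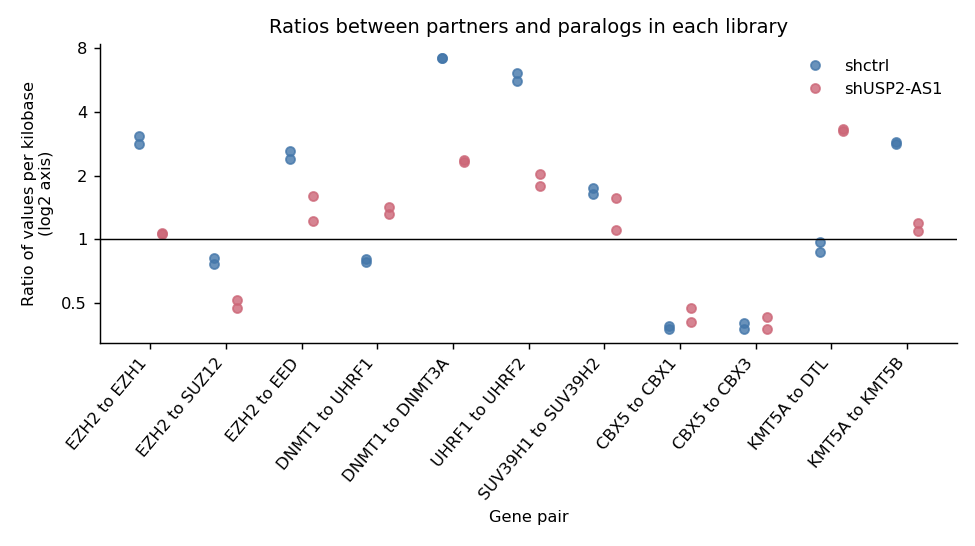
Ratios of a gene to its relative or partner per kilobase of gene length (log2 axis), one point per library, shctrl in blue and shUSP2-AS1 in red. EZH2 to EZH1, DNMT1 to DNMT3A, UHRF1 to UHRF2 and KMT5A to KMT5B are lower in both shUSP2-AS1 libraries. DNMT1 to UHRF1, KMT5A to DTL and, by a small margin, CBX5 to CBX1 are higher, and CBX5 to CBX3 overlaps.

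Of the H3 lysine 9 genes, both methyltransferases fell and the reader CBX5 did not pass the fold threshold. SUV39H1 (ENSG00000101945, chromosome X, 48695554 to 48709016) was at 446 and 437 normalized counts in shctrl and at 140 and 183 after knockdown. The log2 fold change was -1.46 (SE 0.13, 95% interval -1.73 to -1.19) with an adjusted p of 1.04e-08 in limma. SUV39H2 (ENSG00000152455, chromosome 10, 14878820 to 14904315) was at 282 and 296 in shctrl and at 140 and 129 in shUSP2-AS1. With 133 to 292 reads per library it was among the least deeply counted of the 10 genes. Its log2 fold change was -1.10 (SE 0.13, adjusted p 3.66e-07 in limma). Tested against a fold change of 2 (limma treat), SUV39H2 had an adjusted p of 0.906. Exons of SUV39H2 overlap those of DCLRE1C on the opposite strand, and exons of SUV39H1 those of ENSG00000232828. Whether counting used strand is not given in the sources used here. The ratio of SUV39H1 to SUV39H2 per kilobase was 1.74 and 1.63 in shctrl and 1.10 and 1.56 in shUSP2-AS1, without overlap but with the knockdown libraries far apart.

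CBX5 (ENSG00000094916, chromosome 12, 54230942 to 54280133, minus strand) was at 3869 and 3977 normalized counts in shctrl and at 2998 and 2899 in shUSP2-AS1. It kept 75.2% of its control level, the most of the 10 genes, with a log2 fold change of -0.41 (SE 0.05, 95% interval -0.52 to -0.30). CBX5 also has an annotated copy (CBX5P1), and its exons overlap MIR3198-2 on the same strand. How reads shared with either were assigned is not given in the sources used here. The other HP1 genes lay close to CBX5. CBX1 (HP1 beta) was at 2079 and 2063 in shctrl and at 1283 and 1439 in the knockdown libraries, a log2 fold change of -0.61. CBX3 (HP1 gamma) was at 3319 and 3183 in shctrl and at 2250 and 2476 in the knockdown libraries, a log2 fold change of -0.46. Neither passed the fold threshold. The ratio of CBX5 to CBX3 per kilobase overlapped between the groups, at 0.375 and 0.402 in shctrl and 0.429 and 0.377 in shUSP2-AS1. That of CBX5 to CBX1 did not overlap, at 0.377 and 0.390 in shctrl and 0.473 and 0.408 in shUSP2-AS1. The other H3 lysine 9 methyltransferases SETDB1, EHMT1 and EHMT2 were not listed.

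KMT5A (ENSG00000183955, chromosome 12, 123383773 to 123409353) was at 813 and 777 normalized counts in shctrl and at 392 and 451 after knockdown. The log2 fold change of -0.92 (SE 0.09, 95% interval -1.10 to -0.73, adjusted p 3.0e-08 in limma) missed the fold threshold. It passed it when the reads were scaled by RLE, the median-ratio scaling, or fitted in DESeq2 with its own size factors (-1.03 in both). Both of these scalings were estimated from the listed genes alone. Without shUSP2-AS1 replicate 2 the log2 fold change of KMT5A was -1.02. KMT5A has 3 annotated pseudogene copies, and how reads shared with them were assigned is not given in the sources used here. KMT5B, which adds the further methyl groups to H4 lysine 20, was at 530 and 518 in shctrl and at 678 and 714 in the knockdown libraries, a log2 fold change of 0.41 that did not pass the fold threshold. The ratio of KMT5A to KMT5B per kilobase went from 2.90 and 2.83 to 1.09 and 1.19. DTL, the substrate receptor of the ligase that degrades KMT5A, fell from 902 and 956 to 129 and 145, a log2 fold change of -2.75 (adjusted p 1.38e-13 in limma). Per kilobase, KMT5A stood at 0.970 and 0.875 of the level of DTL in shctrl and at 3.26 and 3.34 times that level in shUSP2-AS1. KMT5C was not listed.

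**Figure D4:**
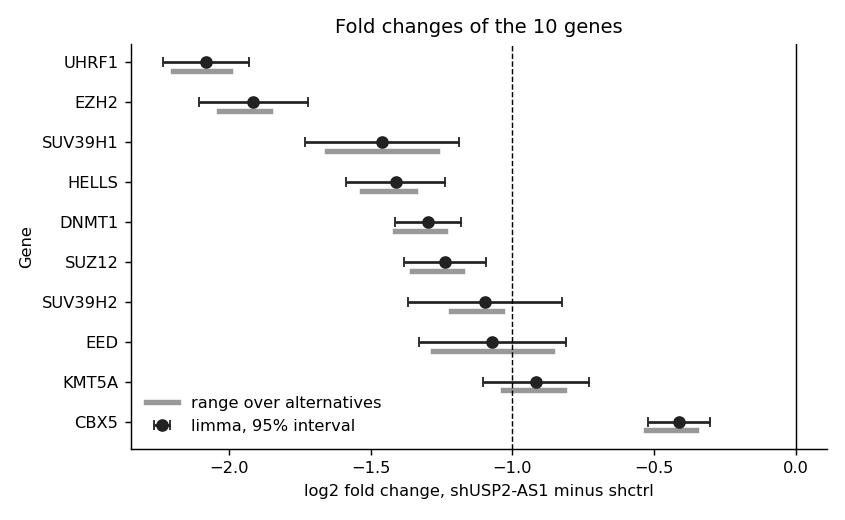
Log2 fold changes (shUSP2-AS1 minus shctrl) of the 10 genes from limma with 95% intervals, in order of size. UHRF1 at -2.08 and EZH2 at -1.91 lie at one end, KMT5A at -0.92 and CBX5 at -0.41 at the other.

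In order of fold change the genes ran UHRF1, EZH2, SUV39H1, HELLS, DNMT1, SUZ12, SUV39H2, EED, KMT5A and CBX5. Each neighbouring pair had overlapping 95% intervals except KMT5A and CBX5, whose estimates were 0.50 apart on the log2 scale. Overlap alone does not mean that a pair cannot be told apart. The intervals of EZH2 and SUV39H1 barely overlapped, with estimates 0.45 apart (SE of the gap 0.16). The order of levels was another one. Per kilobase of the gene length in the table, UHRF1 was the highest of the 10 in shctrl, at 447 normalized counts, followed by DNMT1 at 355 and CBX5 at 261, and EED was the lowest at 73.0. In shUSP2-AS1 CBX5 led at 196, before DNMT1 at 144 and UHRF1 at 106, and EZH2 went from the fifth to the seventh place, at 48.5. These levels depend on the length used. With the length of the MANE Select transcript, DNMT1 at 659 came before UHRF1 at 590 in shctrl, and HELLS moved up from the eighth to the fifth place.

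The other genes of the same pathways were read from 6 lists written by hand. The lists hold 119 further chromatin genes, of which 61 were tested, 13 were called lower and 0 higher by limma, and 0 higher by edgeR and DESeq2, where 13.5% of all tested genes were called lower and 16.1% higher. With no fold threshold 50 were lower and 11 higher. Their median log2 fold change was -0.51. Under upper quartile scaling 1 gene of these lists was called higher.

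Of the other DNA methylation genes, 13 of 24 were tested, 5 were called lower and 0 higher, with a median log2 fold change of -0.57. LIG1, the ligase that joins Okazaki fragments and is bound by UHRF1 when methylated, was at -1.33. PCNA, the sliding clamp that holds DNMT1 at the fork, was at -1.01, and it was not called under upper quartile scaling, in the test against a fold change of 2, without shUSP2-AS1 replicate 1 (-0.97) or without shctrl replicate 1 (-0.98). CDCA7, a partner of HELLS, was at -1.40 and its relative CDCA7L at -2.09. The fifth, PCLAF, a PCNA-bound protein that UHRF1 ubiquitinates, was named after its value was seen, at -1.97. Adjusted p-values of these genes ran from 6.69e-12 for LIG1 to 1.32e-10 for PCLAF in limma. DNMT3A and GADD45A (0.26) went the other way without passing the fold threshold.

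Of the other PRC2 genes, 8 of 13 were tested and 1 was called lower, a share near that of all tested genes, as it was in the PRC1 and H3 lysine 9 lists that follow. PHF19, a PRC2 subunit that reads H3 lysine 36 methylation, was at 1399 and 1348 in shctrl and at 531 and 523 in the knockdown libraries, a log2 fold change of -1.38 (adjusted p 7.29e-12 in limma). The histone-binding subunits RBBP4 and RBBP7 were at -0.82 and -0.73, below the threshold in size. KDM6B, a demethylase that removes the PRC2 mark, was at 626 and 696 in shctrl and at 1326 and 1269 in the knockdown libraries, a log2 fold change of 0.97 that just missed the threshold. It was called higher under upper quartile scaling, without shUSP2-AS1 replicate 2 and without shctrl replicate 2. JARID2 (0.48) and LCOR (0.37) also had positive values. Of PRC1, the complex that ubiquitinates H2A, 9 of 22 genes were tested and 1 was called lower, CBX2 at -1.01. That call was lost under upper quartile scaling, in the test against a fold change of 2 and without shctrl replicate 2. BCOR was at -0.92, and was called lower under RLE scaling and in DESeq2 with its own size factors (-1.03 in both). PCGF5 was at -0.84, while YAF2 (0.64) and PHC2 (0.27) had positive values that did not pass.

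Of the other H3 lysine 9 and HP1 genes, 10 of 24 were tested and 1 was called lower. TRIM28 (KAP1), the corepressor that brings H3 lysine 9 methylation to zinc-finger targets, was at 17111 and 17443 in shctrl and at 7448 and 7667 in the knockdown libraries, a log2 fold change of -1.19 (adjusted p 2.97e-13 in limma). KDM1A was at -0.45, and KDM3A, a demethylase of this mark, at 0.48. Of the other H4 lysine 20 genes, 6 of 12 were tested, and DTL and ORC1, an origin protein that binds dimethylated H4 lysine 20, were called lower, ORC1 at -2.45. CUL4A, the scaffold of the DTL ligase, was at -0.28. Of the remodelling and histone deposition genes, 15 of 24 were tested and 3 were called lower. They were the histone chaperone NASP (-1.73) and the CAF-1 subunits CHAF1A (-2.07) and CHAF1B (-2.12), which place new histones behind the fork. SIN3A was at -0.98 and ASF1A at 0.45, and neither passed, though SIN3A did under RLE scaling, in DESeq2 with its own size factors and without shctrl replicate 1.

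**Figure D5:**
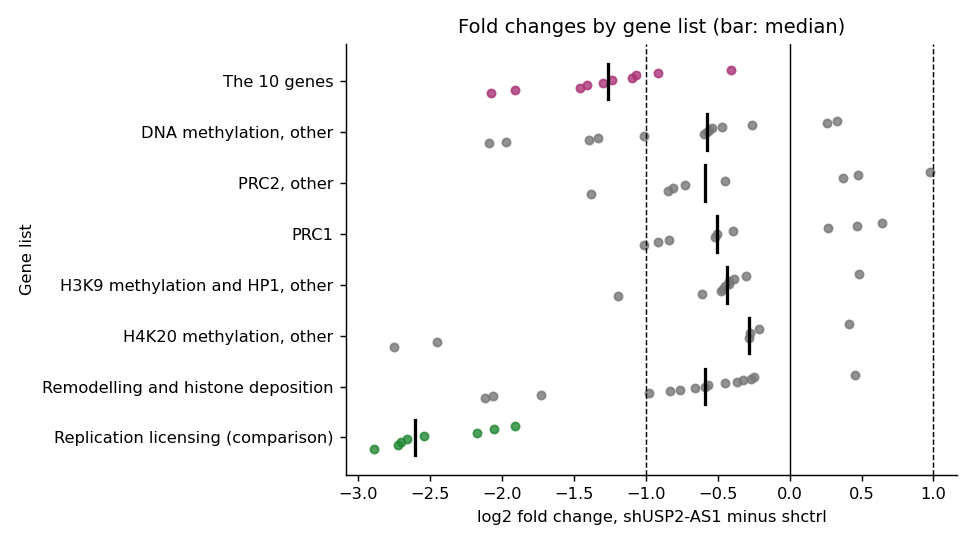
Log2 fold changes (shUSP2-AS1 minus shctrl) of the tested genes of each chromatin list and of the replication licensing comparison list, one point per gene with the list's median. The 10 genes have a median of -1.27, the other chromatin lists between -0.59 and -0.28, and the licensing list -2.61.

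The replication licensing genes, which load the replicative helicase onto DNA, were read in the same libraries for comparison. All 8 licensing genes (MCM2 to MCM7, CDC6 and CDT1) were called lower, with log2 fold changes from -2.89 to -1.91 and a median of -2.61. UHRF1 and EZH2 reached the upper end of that range and the other 8 genes did not. E2F1 was at 1280 and 1241 in shctrl and at 276 and 304 in the knockdown libraries, a log2 fold change of -2.12. Beside the 5 promoters with an E2F motif shown above, the fold changes of those genes ran from -2.08 to -1.24 with a median of -1.41. The 5 genes without one ran from -1.46 for SUV39H1 to -0.41 for CBX5, with a median of -1.07, so the groups overlapped. Over the 4875 tested genes whose MANE Select promoter was in the table, the median log2 fold change was -0.60 for the 272 with the motif and 0.17 for the 4603 without it, and 30.5% and 11.4% were called lower. This split was not particular to the E2F motif. Genes with and without the CHR element had medians of -0.52 and 0.15, and 28.9% and 10.8% were called lower. With and without CCAAT the medians were -0.34 and 0.24, and 17.1% and 9.73% were called lower. For the E-box the medians were -0.39 and 0.15, and 10.8% and 12.7% were called lower. The part of E2F proteins in these values was not tested.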

How the data were processed

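The authors extracted total RNA for the sequencing and, per the submitters' processing notes, used HISAT2 2.0.5, featureCounts 1.5.0-p3 and DESeq2 1.20.0 with hg38. The deposited table holds a normalized signal per gene and library (reads divided by a size factor), gene length, and the authors' log2 fold changes, p-values and adjusted p-values. None of these comparison columns was used, except to find that 0 of 6828 rows reach 0.05. Columns were matched to libraries by group and number, and 105 rows carry no symbol.

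Whole reads were recovered from all values (100% within 0.01 read). Genes with a mean of at least 10 were fitted as log2(value + 1) with limma 3.58.1 (lmFit, eBayes with trend; R 4.3.3), and p-values were adjusted by Benjamini-Hochberg over 6812 genes. Fold changes on this scale understate those of low genes. Count tests used edgeR 4.0.16 and DESeq2 1.42.0. The RLE and upper quartile scalings and DESeq2's own size factors were estimated from the listed genes alone. Such scaling takes most genes as unchanged, while every listed gene had passed the adjusted p of the study's own comparison. P-values measure the spread between these libraries only, and in limma each gene's variance is drawn toward that of the other genes tested. Those genes were all listed at an adjusted p below 0.05 in the study's own comparison. The smallest 2-sided exact permutation p possible with 2 against 2 libraries is 0.333, and no such test was run.

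The 10 genes, the lists and the motifs were chosen with earlier results of these data known. Genes named are the 10, USP2-AS1, their relatives, the 4 genes of lowest p per list, and those against the direction of their list. A gene that this rule would name is not reported here.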

Additional observations from a re-analysis of the deposited data

How the results depend on the processing

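Direction held for all 10 genes under every alternative run. Leaving out a library could not reverse it, since the groups did not overlap, and several alternatives reuse the same fold changes. The number called lower ran from 6, when tested against a fold change of 2 (treat), to 10 with no fold threshold, and from 7 to 9 with each library left out. EED and SUV39H2 were not called under treat. Leaving libraries out gave a median of the 10 genes from -1.30 to -1.24, 882 to 955 genes called lower and 1083 to 1101 higher, 12 to 14 of the 6 lists lower and 0 to 1 higher, and USP2-AS1 from -2.99 to -1.78. The median of the 10 genes was -1.39 under RLE scaling and -1.38 in DESeq2 with its own size factors, where the median of all genes moved by -0.12 and the calls were 1143 lower and 934 higher (RLE), or 1140 and 942. With no fold threshold 3362 genes were lower and 3449 higher (50 and 11 in the lists). Under treat, 523 and 541 were called, and USP2-AS1, at -2.39, had an adjusted p of 0.0723. Under upper quartile scaling 1 list gene was called higher. These scalings rest on the listed genes alone, so a shift under them may reflect how genes came to be listed, which was not tested. Per kilobase of MANE Select transcript, a length chosen after seeing the data, the median level of the 10 genes in shctrl was 319, against 179 with the table's length. In the 250 bases before the start site alone, 3 genes held the E2F motif and 1 the CHR element. With the replicate number as a block, 8 of the 10 genes, 922 genes in all and 13 list genes were called lower, as without it. In this balanced design a block leaves each log2 fold change as it was. Nearly all genes pass on the adjusted p alone, so these counts could hardly move and say nothing about pairing. Replicate differences of the groups correlated at -0.0397, and the labels pair the samples by number only. edgeR called 923 and 1099. USP2-AS1 could not be tested under the filter of 10 reads in every library, and protein lengths were not run. Depth limits USP2-AS1, with 2 to 24 reads.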

Other observations

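Genes that repressive marks are known to silence were looked at as well. Of 30 germline genes that DNA methylation keeps off in somatic cells, such as the MAGEA family and DAZL, 0 were listed, and they were not analysed here. Of 25 genes described as silenced by EZH2 in cancers, 8 were tested, 3 were called higher and 1 lower by limma, where 16.1% of all tested genes were called higher and 13.5% lower. Their median log2 fold change was 0.76. TIMP2, an inhibitor of matrix metalloproteinases, went from 4785 and 4975 normalized counts in shctrl to 10216 and 10739 in the knockdown libraries, a log2 fold change of 1.10. KLF2, a transcription factor, went from 442 and 502 to 1201 and 1268, a log2 fold change of 1.39. The third, TIMP3, was named after its value was seen and went from 6.76 and 14.3 to 58.9 and 85.4, so its fold change of 2.72 on the log2 scale rests on few reads. TIMP2 was not called under RLE scaling or in DESeq2 with its own size factors (0.98 and 0.99), and neither TIMP2 nor RUNX3 was called against a fold change of 2. DKK1 (0.65) and DAB2IP (0.67) did not pass the fold threshold. RUNX3 went the other way, from 252 and 280 to 120 and 129, a log2 fold change of -1.09. GATA6, at 0.85, was called higher without shUSP2-AS1 replicate 2 (1.04) and without shctrl replicate 1 (1.16), and was named after its value was seen.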
